A study of Homo sapiens with 8 samples.

Results

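The interferon-stimulated genes are described here in ribosome profiling libraries of G401 cells. A list of 35 genes was taken from the interferon response, covering its transcription factors, RNA sensors, antiviral effectors and ISG15 pathway, and all 35 were found by gene ID among the 20719 genes counted. G401 is a kidney rhabdoid tumor line without SMARCB1, a core subunit of the mSWI/SNF chromatin remodeling complex. The cells carried either SMARCB1 or GFP under a Tet-On promoter and were treated with 0.1 µg/ml doxycycline or with DMSO for 12 h, which gives the groups SMARCB1 Dox, SMARCB1 DMSO, GFP Dox and GFP DMSO with 2 libraries each. All 4 groups lack the cells' own SMARCB1, and the labels name no interferon treatment. Whether each engineered line is a clone is not given in the sources used here, so construct and line cannot be told apart.

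Interferons are cytokines that cells release on sensing foreign nucleic acid. Type I and type III interferons signal through JAK1 and TYK2 to STAT proteins, and STAT2 joins IRF9 in the factor ISGF3. ISGF3 binds interferon-stimulated response elements (ISREs) in promoters, and a further element of the response is the gamma-activated site (GAS). The genes so induced encode proteins that sense or cut viral RNA, block translation, conjugate the ubiquitin-like protein ISG15 or hold virions at the cell surface. A part of them is also made at a basal level without added interferon.

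The response elements of a few of these genes are shown to place the ribosome data beside the promoter that the pathway acts on. The ISRE core was searched as GAAA, any 2 bases and GAAA on both strands, in RefSeq promoter windows of GRCh38.p14 that hold 250 bases before and 50 after a start site. Of the 29 listed genes with a window, 19 (65.5%) held the core, against 4.4% of the 27305 genes with a window. The GAS letters, TTC, any 3 bases and GAA, were in 8 of the 29 (27.6%) and in 9.4% of all genes. The following 30-base stretches are written 5′ to 3′ on the strand of the gene, with the letters of the core in capitals, where overlapping matches form a longer run, and on the opposite strand the core reads as TTTC, any 2 bases and TTTC.
BST2: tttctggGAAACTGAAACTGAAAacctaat
IFI6: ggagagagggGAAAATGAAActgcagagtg
ISG15: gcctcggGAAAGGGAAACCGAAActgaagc
EIF2AK2: agtccaagggGAAAACGAAActgagaacca
DTX3L: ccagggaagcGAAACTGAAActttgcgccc
PARP9: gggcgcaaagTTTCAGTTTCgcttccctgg
IFIT1: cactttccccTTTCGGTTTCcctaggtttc
MX1: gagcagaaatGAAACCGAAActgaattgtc
SAMD9: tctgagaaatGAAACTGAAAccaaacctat
HERC5: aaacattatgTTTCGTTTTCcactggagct
They lie at chr19:17405738-17405767 (minus strand) for BST2, chr1:27672288-27672317 (minus) for IFI6, chr1:1013377-1013406 (plus) for ISG15, chr2:37156967-37156996 (minus) for EIF2AK2 and chr10:89392510-89392539 (plus) for IFIT1. MX1 is shown at chr21:41420559-41420588 (plus), SAMD9 at chr7:93118096-93118125 (minus) and HERC5 at chr4:88457035-88457064 (plus). DTX3L and PARP9 are transcribed in opposite directions on chromosome 3, and their lines are the same element at chr3:122564322-122564351, read on the plus and the minus strand. The core was in 5 of 8 genes with a window and 0 counts in the libraries described next, in 5 of 5 with 1 to 100 counts and in 9 of 16 with more than 100 counts. IFI35, HERC6, ADAR, STAT2, TRIM25, IRF1, IRF9, OAS1, SAMD9L and XAF1 had windows without the letters of the core. IFIT2, MX2, OAS2, OASL, IRF7 and USP18 were not matched to a window. A match of letters is a description and not a binding site, and a window without them says nothing of binding elsewhere.

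The deposited values are counts of ribosome-protected fragments on coding sequences, and they were scaled to library size with TMM factors (CPM). Each library held between 5924443 and 14000039 counts on genes, of which the 35 genes took 0.0987% to 0.135%. GFP Dox replicate 1 stood apart, since reads with more than 1 alignment made up 56.4% of its entries against 25.6% to 39.7% in the other 7 libraries, and such reads are not counted on genes. SMARCB1 itself had 2553 and 1750 counts in SMARCB1 Dox and 0 in the other 6 libraries, as the labels require. The leukocyte markers PTPRC, CD3E and CD14 were at 0 in all libraries, and ITGAM, LST1 and TYROBP had 14, 1 and 6 counts in all. CD68, which many cell types carry in lysosomes, had 1781 counts. RNA-seq was not analysed here, so footprints cannot be split into mRNA level and translation per mRNA, and in bulk samples fewer expressing cells and less RNA per cell cannot be told apart.

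The listed genes differed widely in occupancy. Of the 35 genes, 9 had no footprint in any library, 9 had between 1 and 100 counts over all 8 libraries, and 17 had more. The genes at 0 were HERC5, IFI44, IFI44L, MX1, MX2, OAS1, SAMD9, SAMD9L and XAF1, which include the classical antiviral GTPases MX1 and MX2. A count of 0 over the 8 libraries together allows up to 3 counts, or 0.0392 CPM, and this limit covers counting error only. Over all 20719 genes counted, 30.9% were at 0 in every library, against 25.7% of the listed genes. BST2 and ADAR alone held 60.2% of the counts on the listed genes, and the 10 genes with the most counts held 97.5%. Per kilobase of coding sequence, the occupied genes spanned from 719.5 CPM for BST2 to 0.0124 CPM for OAS2, and BST2 lay above 99% of all genes with a footprint.

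**Figure D1:**
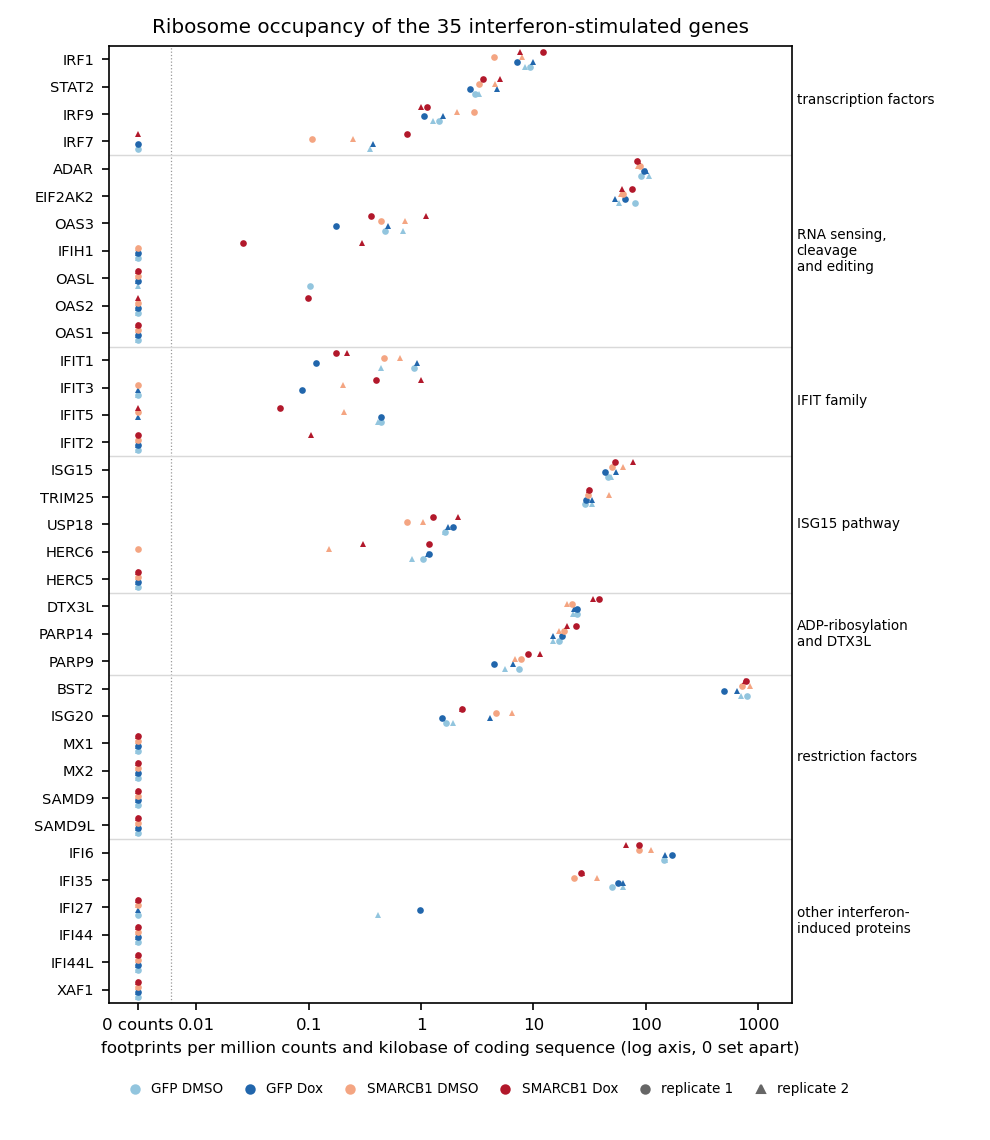
CPM per kilobase of coding sequence (log axis) for the 35 interferon-stimulated genes, grouped by role. Each point is 1 library, color gives the group and shape the replicate, and libraries with 0 counts are set apart on the left. BST2 lies at 500.7 CPM per kilobase or more in all 8 libraries, and 9 genes are at 0 in all of them.

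The transcription factors of the response were present at low levels in all 4 groups. STAT2, a subunit of ISGF3, had 9.45 and 13.5 CPM in SMARCB1 Dox, 8.67 and 12.2 CPM in SMARCB1 DMSO, 7.28 and 12.7 CPM in GFP Dox and 8.14 and 8.68 CPM in GFP DMSO (replicates 1 and 2). Its GFP DMSO libraries lay below those of SMARCB1 Dox, and all other pairs of groups overlapped. IRF9, the DNA-binding subunit of ISGF3, had 1.59 and 1.43 CPM in SMARCB1 Dox, 4.17 and 2.96 CPM in SMARCB1 DMSO, 1.49 and 2.22 CPM in GFP Dox and 2.06 and 1.81 CPM in GFP DMSO. The SMARCB1 DMSO libraries of IRF9 lay above the other 6, on 25 and 38 counts. How many of all genes have a group set apart in this way was not counted, for IRF9 or for the genes below. Per kilobase STAT2 had 3.77 CPM and IRF9 1.56 CPM. IRF1 had 4.84 to 13.0 CPM, and IRF7, which amplifies interferon production, had 32 counts in all.

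Among the proteins that sense, cut or edit RNA, 2 were occupied at a high level and the rest at little or nothing. ADAR, which edits adenosine to inosine in double-stranded RNA, had 320 and 323 CPM in SMARCB1 Dox, 337 and 324 CPM in SMARCB1 DMSO, 367 and 378 CPM in GFP Dox and 348 and 405 CPM in GFP DMSO. Its highest library was 1.27 times its lowest, the narrowest spread of the 17 genes tested that had counts in all libraries, and its 4 SMARCB1-line libraries lay below the 4 GFP-line libraries. EIF2AK2, the kinase PKR that blocks translation initiation on binding double-stranded RNA, had 126 and 101 CPM in SMARCB1 Dox, 104 and 98.8 CPM in SMARCB1 DMSO, 107 and 88.1 CPM in GFP Dox and 132 and 95.1 CPM in GFP DMSO. Its groups overlapped. The oligoadenylate synthetases, which make a messenger that sets off RNA decay, were hardly occupied, with 163 counts in all for OAS3, 3 for OAS2, 2 for OASL and 0 for OAS1. IFIH1, the RNA sensor MDA5, had 7 counts, described further with the doxycycline effect.

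The IFIT proteins bind viral RNA and keep it from being translated, and their genes lie side by side on chromosome 10. They were hardly occupied, with 55 counts for IFIT1, 27 for IFIT3, 26 for IFIT5 and 1 for IFIT2 over the 8 libraries. IFIT1 is the transcript that a primer pair of the study matches, under the printed name IFNAI1, and no other gene matched both primers. The pair amplifies 126 bases inside the coding sequence at chr10:89402717-89402842.
IFIT1 forward primer: GCCTTGCTGAAGTGTGGAGGAA
IFIT1 reverse primer: ATCCAGGCGATAGGCAGAGATC
IFIT1 had 3 and 2 counts in SMARCB1 Dox, 4 and 12 in SMARCB1 DMSO, 1 and 9 in GFP Dox and 15 and 9 in GFP DMSO. These counts are too few to separate the groups by their libraries, since replicates of GFP Dox alone spanned 0.165 to 1.33 CPM.

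The ISG15 pathway was occupied unevenly along its steps. ISG15, the ubiquitin-like modifier, had 26.3 and 38.0 CPM in SMARCB1 Dox, 24.7 and 31.2 CPM in SMARCB1 DMSO, 21.3 and 27.1 CPM in GFP Dox and 22.9 and 24.2 CPM in GFP DMSO. The GFP DMSO libraries of ISG15 lay below the 4 of the SMARCB1 line and within the range of GFP Dox. TRIM25, a ubiquitin ligase that also acts on the sensor RIG-I, had 56.2 to 91.0 CPM. USP18, which removes ISG15 from its targets, had 0.834 to 2.38 CPM. HERC5, the main ISG15 ligase of human cells, was at 0. Its neighbor and paralog HERC6 had 44 and 6 counts in SMARCB1 Dox, 0 and 6 in SMARCB1 DMSO, 22 and 24 in GFP Dox and 39 and 37 in GFP DMSO. HERC6 was thus low in both SMARCB1 DMSO libraries and in SMARCB1 Dox replicate 2, and high in the other 5. Reads that fit more than 1 paralog are not counted, so levels in the IFIT, OAS, HERC and SAMD9 families are those of unique sequence.

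PARP9, PARP14 and DTX3L lie together on chromosome 3 and act in ADP-ribosylation. DTX3L, a ubiquitin ligase that binds PARP9, had 85.6 and 75.1 CPM in SMARCB1 Dox, 49.2 and 44.5 CPM in SMARCB1 DMSO, 54.1 and 50.7 CPM in GFP Dox and 54.5 and 50.3 CPM in GFP DMSO. The SMARCB1 Dox libraries of DTX3L lay above the other 6, and the share of all genes with a group so set apart was not counted. PARP9, its partner across the shared element printed above, had 23.3 and 29.6 CPM in SMARCB1 Dox, 20.2 and 17.8 CPM in SMARCB1 DMSO, 11.7 and 17.3 CPM in GFP Dox and 19.5 and 14.6 CPM in GFP DMSO. Here too the SMARCB1 Dox libraries were the highest. PARP14, a mono-ADP-ribosyltransferase, had 81.9 to 131 CPM. Summed over these 3 genes, the SMARCB1 Dox libraries had 240.0 and 214 CPM and the other 6 between 147 and 172 CPM. This sum was not tested, and sums of the other role groups are not given here. None of the 3 genes was called in SMARCB1 Dox against SMARCB1 DMSO.

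Among the restriction factors, which act on the virus itself, BST2 was the most occupied of all 35 genes. BST2, or tetherin, holds budding virions at the plasma membrane. It had 422 and 411 CPM in SMARCB1 Dox, 387 and 459 CPM in SMARCB1 DMSO, 270 and 348 CPM in GFP Dox and 430.5 and 379.5 CPM in GFP DMSO. The GFP Dox libraries of BST2 were the lowest, and GFP Dox replicate 1 is the library with the most reads of more than 1 alignment, whose part in this was not tested. ISG20, an RNA exonuclease, had 15 and 8 counts in SMARCB1 Dox, 15 and 45 in SMARCB1 DMSO, 5 and 15 in GFP Dox and 11 and 15 in GFP DMSO. In CPM, SMARCB1 DMSO held its highest values, at 2.50 and 3.51.

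Of the other interferon-induced proteins, 2 were well occupied. IFI6, a small membrane protein, had 36.4 and 27.7 CPM in SMARCB1 Dox, 36.2 and 45.9 CPM in SMARCB1 DMSO, 70.3 and 60.8 CPM in GFP Dox and 59.8 and 60.8 CPM in GFP DMSO. IFI35, a leucine zipper protein that binds NMI, had 22.8 and 23.3 CPM in SMARCB1 Dox, 19.7 and 31.9 CPM in SMARCB1 DMSO, 48.5 and 53.8 CPM in GFP Dox and 42.9 and 54.6 CPM in GFP DMSO. For both genes the 4 libraries of the SMARCB1 line lay below the 4 of the GFP line. IFI27 had 3 counts in GFP Dox replicate 1 and 3 in GFP DMSO replicate 2, and IFI44, IFI44L and XAF1 were at 0.

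**Figure D2:**
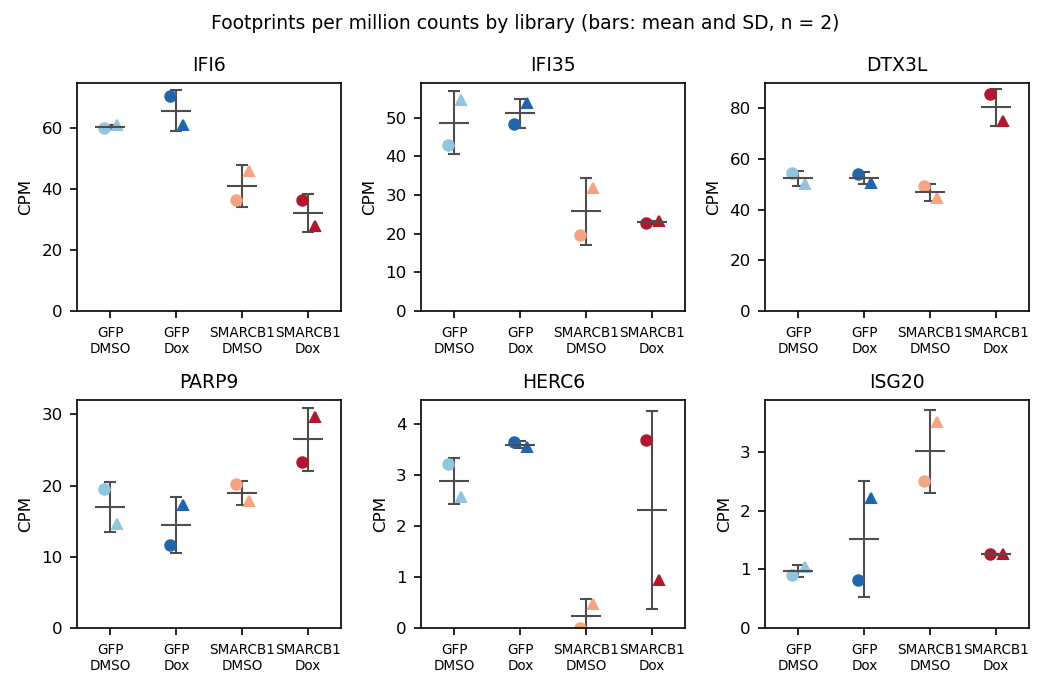
CPM of IFI6, IFI35, DTX3L, PARP9, HERC6 and ISG20 in each library on linear axes that start at 0. Points are libraries (circle, replicate 1; triangle, replicate 2), and bars give the mean and SD of 2 libraries. IFI6 and IFI35 separate by line, whereas DTX3L is highest in SMARCB1 Dox, at 80.4 ± 7.45 CPM.

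Whether re-expression of SMARCB1 alters the occupancy of these genes was asked by comparing SMARCB1 Dox with SMARCB1 DMSO. Of the 18 listed genes that passed the expression filter, 0 were called higher or lower, where a call needed a Benjamini-Hochberg adjusted p below 0.05 and a fold change above 2 by quasi-likelihood testing in edgeR. DESeq2 also called 0. Over all 11097 genes tested, 0.018% were called. At an unadjusted p-value below 0.05 there were 2 listed genes, DTX3L and HERC6, both higher in SMARCB1 Dox, against 4.97% of all genes. DTX3L stood at 0.78 on the log2 scale (standard error, SE, 0.23 with an adjusted p of 0.463 from edgeR). Leaving out each library in turn kept it between 0.68 and 0.87, and over all alternatives the adjusted p lay between 0.212 and 1. HERC6 stood at 2.98 (SE 0.95, adjusted p = 0.582), and this moved between 1.65 and 7.47 as single libraries were left out. Its 50 counts against 6 gave a ratio of 8.59 with an exact 95% interval of 3.68 to 24.5 for counting error only, and without SMARCB1 Dox replicate 1 the ratio was 2.98 (0.798 to 11.2). The 18 log2 fold changes had a median of 0.14, against -0.02 for all genes, with 10 above 0 and 8 below.

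The precision of these values follows the depth of each gene. For the 10 genes above 1000 counts the standard errors were 0.22 to 0.31 on the log2 scale, and 9 of the 10 log2 fold changes lay within 0.5 of 0. BST2, ADAR and EIF2AK2 had log2 fold changes of -0.02 (SE 0.24), -0.04 (0.22) and 0.16 (0.25). For the 8 genes below 1000 counts the standard errors were 0.38 to 1.15, in the shallowest genes as large as the fold threshold itself. IRF9 at -1.21 (SE 0.64), ISG20 at -1.26 (0.73) and IFIT1 at -1.52 (1.15) were each lower in SMARCB1 Dox without passing the test.

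The 8 listed genes that had counts but were not tested are given by their counts. IFIT3 and IFIH1 are singled out here after their values were seen. IFIT3 had 9 and 12 counts in SMARCB1 Dox, 0 and 5 in SMARCB1 DMSO, 1 and 0 in GFP Dox and 0 in both GFP DMSO libraries. Nearly all of its counts, 26 of 27, came from the SMARCB1 line. Its ratio of SMARCB1 Dox to SMARCB1 DMSO was 4.33 (exact 95% interval 1.59 to 14.7, counting error only), and 2.84 (0.853 to 10.8) without SMARCB1 Dox replicate 2. IFIH1 had 1 and 6 counts in SMARCB1 Dox and 0 in the other 6 libraries, and the exact 95% lower limit of its ratio of SMARCB1 Dox to SMARCB1 DMSO was 1.49 (counting error only). Leaving out replicate 2 of SMARCB1 Dox gave a limit of 0.0404, and leaving out replicate 2 of SMARCB1 DMSO one of 0.473. IFIT5 had 5 counts over the SMARCB1-line libraries and 21 over those with GFP. IRF7 had 14 counts in SMARCB1 Dox, all from replicate 1, and the other 4 genes had at most 6 counts in all.

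In the GFP line, which controls for doxycycline and for induction of a protein, 0 of the 18 genes were called in GFP Dox against GFP DMSO by edgeR or by DESeq2, and 0 reached an unadjusted p below 0.05 in edgeR. Of all genes, 0% were called and 2.16% were below 0.05 unadjusted. Their log2 fold changes ran from -0.74 for OAS3 to 0.65 for ISG20, with a median of 0.0032 against 0.02 for all genes. DTX3L was at -0.00013 (SE 0.23) and HERC6 at 0.32 (SE 0.74). The difference between the doxycycline effects of the lines was tested directly. It gave 0 calls among the listed genes by edgeR and by DESeq2, and 0% among all genes by edgeR. At an unadjusted p-value below 0.05 there were again DTX3L (0.78, SE 0.32, adjusted p = 0.981) and HERC6 (2.67, SE 1.21, adjusted p = 0.981), against 3.99% of all genes. The value of HERC6 in this contrast moved between 1.34 and 7.15 as single libraries were left out. This contrast shares its SMARCB1 libraries with the effect above, so the values are not a separate observation.

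**Figure D3:**
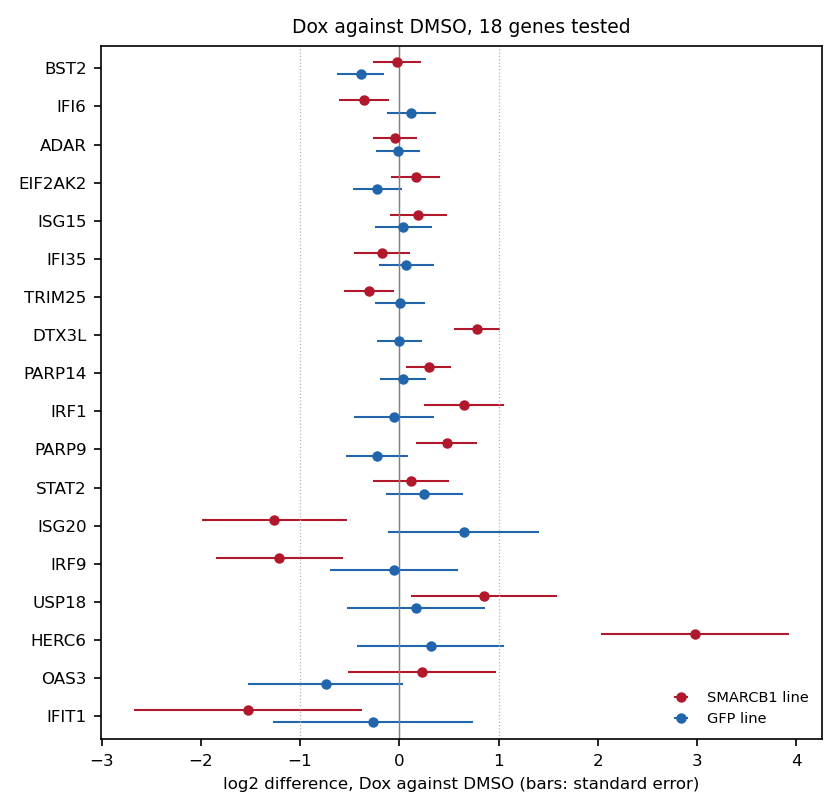
Log2 difference of Dox against DMSO in the SMARCB1 line (red) and the GFP line (blue) for the 18 interferon-stimulated genes tested, ordered by level per kilobase. Bars are standard errors and dotted lines mark a fold change of 2. The points of the upper 12 genes lie between the dotted lines in both cell lines, and errors widen towards the genes with fewer counts at the bottom.

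The lines were also compared with each other, with and without doxycycline. With doxycycline, IFI6 and IFI35 were lower in SMARCB1 Dox than in GFP Dox, and 0 were higher. IFI6 fell by 1.03 on the log2 scale (SE 0.25, adjusted p = 0.0233) and IFI35 fell by 1.15 (SE 0.28, adjusted p = 0.0238), in edgeR's quasi-likelihood test. The 2 of 18 compare with 6.08% of all genes called in either direction and 2.98% of all genes called lower. Without SMARCB1 Dox replicate 1 or without replicate 2, 0 of these calls were left, while IFI6 was at -1.24 and -0.85 and IFI35 at -1.13 and -1.17. Without GFP Dox replicate 1, IFI35 was still called at -1.22 (adjusted p = 0.0345), and IFI6 was at -0.92 (adjusted p = 0.0792). At an unadjusted p-value below 0.05 were 4 of the 18, against 18.7% of all genes, and beside IFI6 and IFI35 these were PARP9 at 0.86 (SE 0.31, adjusted p = 0.138) and DTX3L at 0.62 (SE 0.23, adjusted p = 0.143). PARP9 reached 1.17 with an adjusted p of 0.0436 without GFP Dox replicate 2, where the library that stood apart is the only GFP Dox library left and the calls over all genes rose to 693 higher and 658 lower from 344 and 331.

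Without doxycycline, 0 of the 18 genes were called between SMARCB1 DMSO and GFP DMSO in edgeR, against 4.97% of all genes, and 4 reached an unadjusted p below 0.05, against 13.9% of all genes. These were HERC6 at -3.23 (SE 0.93, adjusted p = 0.0634), IFI35 at -0.91 (SE 0.28, adjusted p = 0.0885), ISG20 at 1.63 (SE 0.72, adjusted p = 0.315) and IFI6 at -0.55 (SE 0.25, adjusted p = 0.33). HERC6 moved between -7.72 and -2.59 as single libraries were left out, with adjusted p-values of up to 0.272. DESeq2 called HERC6 lower, among 317 genes higher and 319 lower of the 11097 tested. HERC6 had 6 counts in SMARCB1 DMSO against 76 in GFP DMSO, a ratio of 0.111 (exact 95% interval 0.0396 to 0.254, counting error only). IFI6 and IFI35 had log2 differences below 0 with and without doxycycline, and so did HERC6, ADAR, USP18 and IFIT1. Over both treatments, the 4 libraries of a line lay beyond all 4 of the other for 3 of the 18 genes, IFI35, IFI6 and ADAR, all lower in the SMARCB1 line, and for 17.6% of all genes. ADAR differed by -0.19 (SE 0.22) under DMSO and -0.21 (SE 0.22) under Dox and passed neither test.

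**Figure D4:**
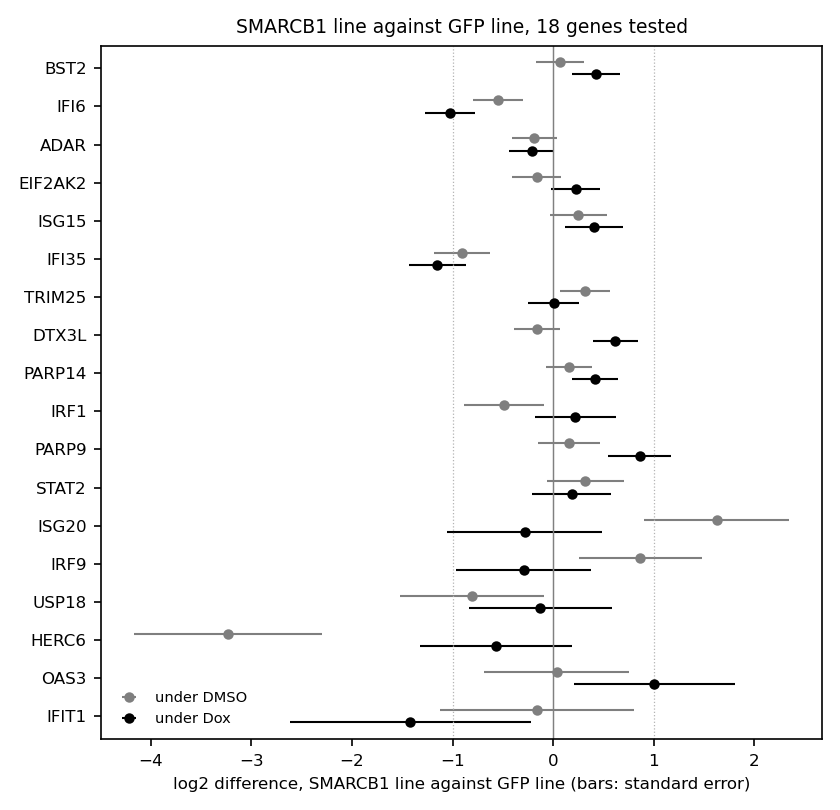
Log2 difference of the SMARCB1 line against the GFP line under DMSO (gray) and under Dox (black) for the 18 interferon-stimulated genes tested. Bars are standard errors and dotted lines mark a fold change of 2. IFI6 and IFI35 lie left of 0 in both treatments, as do HERC6, ADAR, USP18 and IFIT1. HERC6 is at -3.23 under DMSO and -0.57 under Dox.

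The steps of the pathway upstream of these genes were examined from further lists. Of 9 interferon genes, 8 were at 0 in all libraries, including IFNB1 and IFNG, and IFNL1 had 2 counts. The 15 receptors, kinases, STAT proteins and their inhibitors all had counts and 14 were tested, with 0 called, and 0 below an unadjusted p of 0.05, in either doxycycline effect by edgeR. JAK1, the kinase that all interferon receptors use, had 177 and 205 CPM in SMARCB1 Dox, 179 and 193 CPM in SMARCB1 DMSO, 307 and 366 CPM in GFP Dox and 316 and 396 CPM in GFP DMSO. Its 4 SMARCB1-line libraries lay below the other 4. JAK1 was lower in SMARCB1 DMSO than in GFP DMSO by less than the fold threshold (log2 difference -0.94, SE 0.24, adjusted p = 0.0304 from edgeR), with an adjusted p of 0.0553 under Dox. PTPN6, the phosphatase SHP-1 that dampens JAK signaling, held the calls of this list, and it fell by 1.62 on the log2 scale under DMSO (adjusted p = 0.0433) and by 1.76 under Dox (adjusted p = 0.0255). This is 1 of 14 genes in each comparison, against the 4.97% and 6.08% of all genes called. PTPN6 had 2.50 to 3.96 CPM over the SMARCB1-line libraries and 7.73 to 11.9 CPM over those with GFP. The 12 sensors and adaptors had 2 genes at 0, TICAM1 and ZBP1, and 3 counts for the DNA sensor CGAS. Of them 8 were tested and 0 were called in any of the 5 comparisons by edgeR. At an unadjusted p-value below 0.05 the doxycycline effect of the SMARCB1 line held 2 of the 8, STING1 at 1.43 (SE 0.57, adjusted p = 0.875) and RIGI at -1.09 (SE 0.49, adjusted p = 0.98), against 4.97% of all genes. RIGI stood at -0.88 in the GFP line, and the difference between the lines' effects was -0.21 for it.

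**Figure D5:**
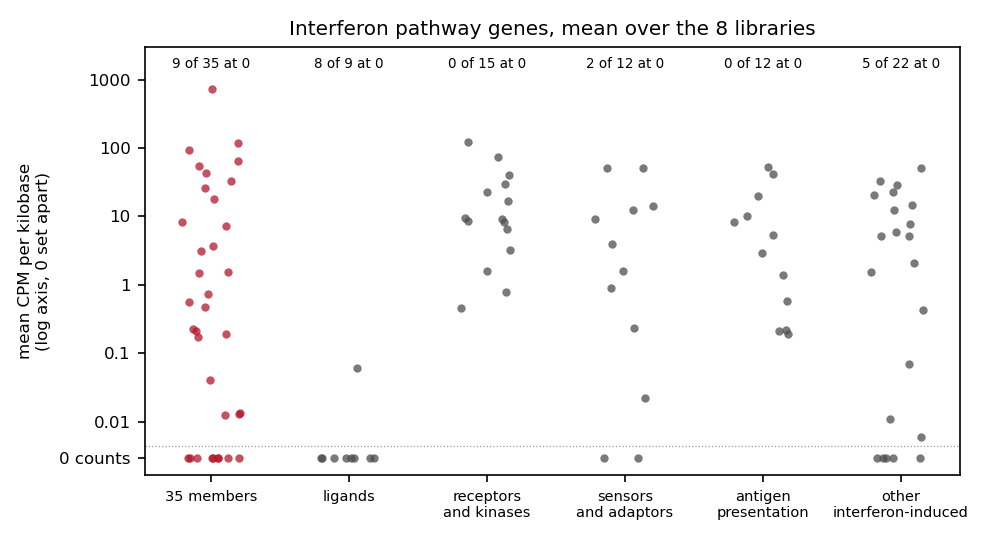
Mean CPM per kilobase of coding sequence over the 8 libraries (log axis) for the 35 interferon-stimulated genes and 5 lists of pathway genes outside them. Each point is 1 gene, and genes at 0 in all libraries are set apart at the bottom. Of the interferon genes 8 of 9 are at 0, whereas none of the 15 receptors and kinases is.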

How the data were processed

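Ribosome profiling was analysed for 8 libraries, grouped by GEO's titles. The authors isolated translating ribosomes with RiboLace from 6 pooled plates per condition in duplicate experiments, aligned the fragments to hg38 with STAR and counted them with HTSeq (intersection-strict, coding sequence, GENCODE 42). The deposited values are these raw counts per gene. Versions, strand option and removal of ribosomal RNA are not given in the sources used here. The 5 HTSeq summary rows per file (55.2% to 74.8% of entries) were left out of totals and tests. Nothing says that replicates came from separate cultures beyond the word duplicate, so p-values measure the spread between these libraries. Replicates differed by more than sampling noise (chi-square per degree of freedom 14.8 to 46).

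Symbols, positions and coding lengths came from GENCODE 44, with 293 IDs unmatched, and promoter sequences from RefSeq (GRCh38.p14). In R 4.3.3, counts were filtered with filterByExpr, scaled with TMM and fitted with edgeR 4.0.16 (glmQLFit, 1 term per group, all 8 libraries). DESeq2 1.42.0 was an alternative. The fits were tested on simulated data with known changes, and the outcome is not reported here. Apart from these changes, each simulated gene had the same mean level in all groups. Ratios of low counts have exact binomial intervals at 95%. Reads carry no molecular identifiers, so these intervals and the limits of a count of 0 hold counting error alone.

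Values in every library are given for genes called or at an unadjusted p-value below 0.05, the 5 with the highest level per kilobase, IFIT1, STAT2 and IRF9. Some genes of the lists are not reported here. The genes, lists and tests were chosen with earlier results of these data known. Alternatives are under the closing section.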

Additional observations from a re-analysis of the deposited data

How the results depend on the processing

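The doxycycline effects and their difference gave 0 calls among the listed genes under every alternative run (DESeq2's size factors, library size alone, DESeq2's Wald test, no filter on low counts, robust quasi-likelihood, at least 10 counts in every library, the compared groups alone, the replicate block, and each library left out), except that the difference could not be fitted from only the groups compared. For SMARCB1 Dox against GFP Dox, the number called lower was 2, but 0 with library size alone (IFI6 at -0.89, adjusted p = 0.058, and IFI35 at -1.03, adjusted p = 0.0627, by edgeR) and 1 (IFI35) with only the groups compared (IFI6 at -1.02, adjusted p = 0.0628), and it ranged from 0 to 2 as single libraries were left out, where the number called higher ranged from 0 to 1 (PARP9). For SMARCB1 DMSO against GFP DMSO, 1 gene, HERC6, was called lower by DESeq2, by edgeR without the filter and with only the groups compared, and 0 to 1 (IFI35) with a library left out. Library size alone moved the median of all genes in the difference between the lines' effects to 0.16 and that of the listed genes to 0.40. With single libraries left out, the median of the listed genes ranged from -0.0148 to 0.33 for that difference, from -0.0704 to 0.23 for the doxycycline effect of the SMARCB1 line and from -0.0636 to 0.38 for SMARCB1 Dox against GFP Dox. IFIT1 turned from -1.26 to 0.85 in the difference and from -1.42 to 0.70 in SMARCB1 Dox against GFP Dox without GFP Dox replicate 2, which holds 9 of the group's 10 counts, with ranges over single libraries left out of -2.06 to 0.85 and -2.22 to 0.70. For the other changes named here the cause was not tested. With the replicate block, 2 genes were called lower in SMARCB1 Dox against GFP Dox (IFI6, adjusted p = 0.0121, and IFI35, adjusted p = 0.00769, by edgeR) and no other call among the listed genes changed. Over all genes, the block moved the calls in SMARCB1 Dox against SMARCB1 DMSO from 2 higher and 0 lower to 9 and 4. Same-numbered libraries deviated together with correlations of 0.0461 to 0.323, all positive. A shared replicate effect is thus possible and was not tested further. The main fits held no block because the authors' methods name none. Depth limits the 17 genes not tested and the 8 tested below 1000 counts.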

Other observations

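Antigen presentation, which interferon also induces, was measured with a list of 12 genes, of which 12 had counts and 10 were tested, and 0 were called in either doxycycline effect by edgeR, with 0 and 1 below an unadjusted p of 0.05 in the SMARCB1 and the GFP line. HLA-E, a class I heavy chain that natural killer cells read, was singled out after its values were seen, and since HLA genes share sequence and reads with more than 1 alignment were not counted, its counts are uncertain. HLA-E had 49.2 and 47.7 CPM in SMARCB1 Dox, 88.4 and 70.2 CPM in SMARCB1 DMSO, 89.6 and 35.03 CPM in GFP Dox and 37.9 and 30.6 CPM in GFP DMSO, and was not called in any of the 5 comparisons.

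Of 22 other interferon-induced genes, 5 were at 0 in all libraries, RSAD2, GBP1, SP100 and CXCL10 among them, 13 were tested, and IFITM2 was called in both comparisons between the lines, 1 of 13 genes against 4.97% of all genes under DMSO and 6.08% under Dox. IFITM2, which blocks the fusion of virus with endosomal membranes, had 7.44 and 6.18 CPM in SMARCB1 Dox, 7.002 and 14.8 CPM in SMARCB1 DMSO, 105 and 41.1 CPM in GFP Dox and 40.8 and 32.9 CPM in GFP DMSO. It fell by 1.72 on the log2 scale under DMSO (adjusted p = 0.0251) and by 3.40 under Dox (adjusted p = 0.000211) in the SMARCB1 line against the GFP line, by edgeR. Its highest value, 105 CPM, came from GFP Dox replicate 1, the library with the most reads of more than 1 alignment. The part of that library in the value under Dox was not tested. The paralogs IFITM1 and IFITM3 were not called, and reads that fit more than 1 paralog are not counted, so the counts of IFITM2 are uncertain. TRIM22, singled out after its values were seen, had 7.28 and 4.75 CPM in SMARCB1 Dox and 0.694 to 1.77 CPM in the other 6 libraries, at 2.21 on the log2 scale (SE 0.63, adjusted p = 0.443 by edgeR) for the doxycycline effect of the SMARCB1 line. It was the 1 of 13 genes at an unadjusted p below 0.05 in that effect, against 4.97% of all genes. In the GFP line TRIM22 stood at 0.88 (SE 0.68), and the difference between the lines' effects was 1.325 (SE 0.93) without a call.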
